A study of Mus musculus with 6 samples.

Results

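Genes that make reactive oxygen species or nitric oxide were followed in smoke-exposed mouse lung, 9 in all: the NADPH oxidase genes Cybb, Cyba, Ncf1, Ncf4, Rac2, Nox4, Duox1 and Duox2, and the inducible nitric oxide synthase gene Nos2. They were chosen by symbol, and all 9 were found by Ensembl identifier among the 55573 genes of the deposited tables. The series measured lung RNA from wild type C57BL/6 mice, 9 to 10 weeks old, in 6 libraries. The CS group (3 libraries) had cigarette smoke for 75 min in each of 2 daily sessions, 5 days a week, over 4 weeks. The SS-31H_CS group (3 libraries) had smoke and also 5 mg/kg of SS-31 once a day, a peptide that concentrates in mitochondria and is used there as an antioxidant. Both groups were exposed to smoke, and lungs without smoke were not analysed here, so no background level stands beside the values. The labels describe the smoke schedule for CS, and for SS-31H_CS only that smoke was given. They do not say whether a library is 1 mouse or a pool, and p-values measure the spread between libraries.

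NADPH oxidases carry electrons from NADPH across a membrane to oxygen. The phagocyte enzyme of neutrophils and macrophages is a membrane pair, gp91phox (Cybb) and p22phox (Cyba), that is switched on when the cytosolic subunits p47phox (Ncf1) and p40phox (Ncf4), the GTPase Rac2 and further partners join it, giving superoxide that helps to kill microbes. Nox4 also pairs with p22phox but needs no cytosolic subunits, gives mainly hydrogen peroxide, and is known from fibroblasts, smooth muscle and endothelium. Duox1 and Duox2 are the dual oxidases of epithelium, which release hydrogen peroxide at the airway surface and need the maturation factors Duoxa1 and Duoxa2. Nos2 makes nitric oxide from arginine, and in macrophages and epithelium it is induced by inflammatory signals.

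Depth was even, at 15611925 to 17360052 counts per library. Levels of a gene across libraries are given as CPM, its count scaled to the TMM-adjusted library size, and 100 counts correspond to 5.73 to 6.17 CPM. Markers of the alveolar type 2 cells of lung were abundant (17440 to 23500 CPM summed over 9 genes). Libraries differed beyond sampling noise, with a chi-square per gene of 8.90 for the closest pair, CS replicates 1 and 2. CS replicate 3 and SS-31H_CS replicate 3 stood apart from the rest: scores on the first principal component (46.4% of the variance) were -61.3 for the former and 44.8 for the latter, the extremes of the 6. Without the third library of both groups, an alternative added after the data were seen, 36 genes and 0 members were called, and the log2 fold change (SS-31H_CS over CS) was 0.16 for Nox4 and -1.13 for Nos2.

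Of the 8 members tested with edgeR (quasi-likelihood, p adjusted by Benjamini-Hochberg over every gene tested), 0 passed the threshold of 0.05, against 0.153% of the 16965 genes tested (26 genes, with 0.0707% higher and 0.0825% lower). Duox1 had too few counts to be tested. At an unadjusted p under 0.05, 1 member was higher with SS-31 (Nox4) and 1 was lower (Nos2), against 18.2% of tested genes in all, 9.93% higher and 8.23% lower. DESeq2 called 1 member, Nos2, which was lower, against 5.74% of genes in that test (3.29% higher, 2.45% lower). limma voom called 0 members, against 0.0354% of genes (0.0177% higher and 0.0177% lower). The median log2 fold change of the 8 tested members, SS-31H_CS over CS, was -0.18, and that of all tested genes was 0.01. Nox4 alone had groups that did not overlap, higher in each SS-31H_CS library. Of all tested genes, 13.6% were higher without overlap, 12.4% lower, and 26.1% either. All these shares are also the background for the counts given for the gene and marker lists below. The number of libraries limits what can be seen: the 95% intervals of the members reached from 0.838- to 1.25-fold for Cyba at the narrowest and from 0.706- to 3.48-fold for Duox2 at the widest.

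**Figure D1:**
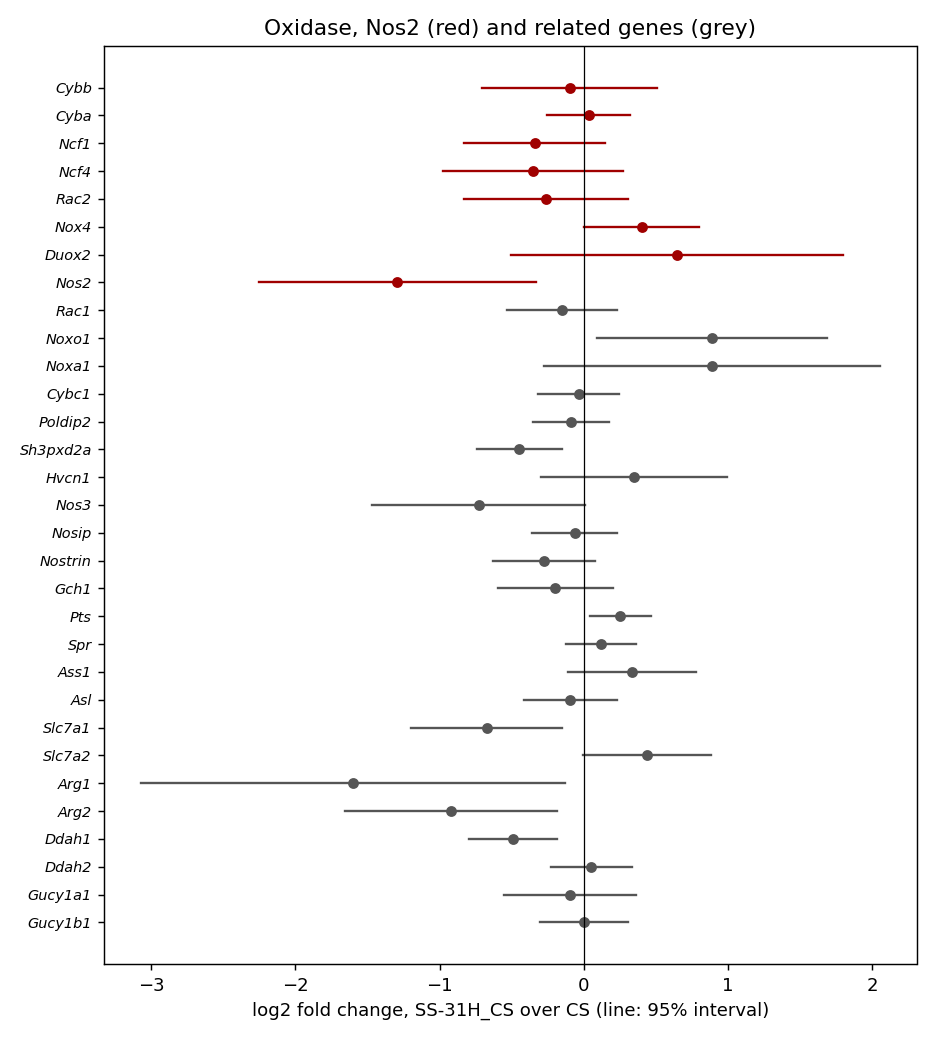
Log2 fold change (x axis, SS-31H_CS over CS) with its 95% interval for each tested member (red) and for related oxidase and nitric oxide genes (grey), from 3 libraries per group. Nos2 stands lowest of the members at -1.29 and Duox2 highest at 0.65, with the widest interval among them; Cyba has the narrowest.

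Start regions of 3 phagocyte subunit genes are shown, Cybb, Cyba and Ncf1, which were all lowest in SS-31H_CS replicate 3. There the log2 CPM was below its mean by less in Cyba (-0.230) than in Cybb (-0.737) and Ncf1 (-0.738). Each runs from 250 bases before the RefSeq transcription start to 30 bases from it, 5′ to 3′ on the gene's own strand, in RefSeq's GRCm38.p6 table. Capitals mark matches, on either strand, to 4 motifs that do not overlap here: the core bound by the myeloid transcription factor PU.1, written GAGGAA, then the box named CCAAT, then the TATA box, here TATAAA, and lastly the box bound by Sp1, which reads GGGCGG. The windows lie at chrX:9469295-9469574 (Cybb), chr8:122432911-122433190 (Cyba) and chr5:134229596-134229875 (Ncf1), each on the minus strand. The RefSeq start of Cybb lies inside the longer gene model given for it in GENCODE.
Cybb: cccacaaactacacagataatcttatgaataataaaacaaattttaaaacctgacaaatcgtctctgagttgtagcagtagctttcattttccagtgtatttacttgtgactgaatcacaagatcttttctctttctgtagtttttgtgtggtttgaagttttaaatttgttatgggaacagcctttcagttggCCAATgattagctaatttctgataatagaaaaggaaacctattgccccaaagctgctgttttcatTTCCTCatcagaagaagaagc
Cyba: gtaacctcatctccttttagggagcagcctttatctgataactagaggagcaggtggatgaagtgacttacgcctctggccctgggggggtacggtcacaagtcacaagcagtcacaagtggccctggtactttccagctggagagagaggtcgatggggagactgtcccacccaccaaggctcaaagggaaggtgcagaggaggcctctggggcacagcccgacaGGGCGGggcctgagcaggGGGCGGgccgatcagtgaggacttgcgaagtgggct
Ncf1: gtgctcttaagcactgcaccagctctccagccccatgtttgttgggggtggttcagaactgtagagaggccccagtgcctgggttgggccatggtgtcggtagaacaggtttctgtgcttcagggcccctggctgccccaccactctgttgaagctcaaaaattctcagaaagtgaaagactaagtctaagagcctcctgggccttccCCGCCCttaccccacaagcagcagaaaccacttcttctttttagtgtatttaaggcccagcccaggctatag

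The Cybb window held CCAAT from 56 bases before the start and the reverse complement of GAGGAA from 9 bases after it. The Cyba window held GGGCGG at 2 places, from 24 and from 6 bases before the start, and the Ncf1 window held its reverse complement from 42 bases before. None of these 3 windows held TATAAA. Of 32851 windows of this length, the PU.1 core was in 26.0%, the CCAAT box in 36.1%, the Sp1 box in 34.7% and the TATA box in 13.1%, so such matches are common. RefSeq start regions were matched for 6 members, and Ncf4, Rac2 and Nos2 were the 3 without an entry.

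Levels of different genes were compared as FPKM, which is per gene length. Cyba stood highest, with an FPKM of 92.0 to 121 (median 106) over the 6 libraries, and Rac2 followed at 30.9 to 68.4. These ranges did not overlap each other or those of the genes below them. Ncf1 (14.8 to 28.7), Ncf4 (10.3 to 24.9) and Cybb (9.66 to 20.8) overlapped in range as FPKM, but within each of the 6 libraries Ncf1 was above Ncf4, and Ncf4 above Cybb. Nox4 lay at 5.00 to 10.2, below Cybb in 5 of 6 libraries. Nos2 (1.70 to 8.01) overlapped Nox4 in range and was below it in 4 of 6. Both dual oxidases were near 0, with Duox2 at 0.03 to 0.14 and Duox1 at 0 to 0.02. The FPKM of Cyba was thus above that of Cybb in every library, by a ratio of 6.40 ± 1.38 in CS and 7.28 ± 1.98 in SS-31H_CS (SD, n = 3 per group, exact permutation p = 0.5, two-sided). Their mean CPM in CS was 110.8 for Cyba and 99.45 for Cybb, and the gene models hold 1039 and 5808 exon bases. The ratio therefore depends on the model lengths used.

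**Figure D2:**
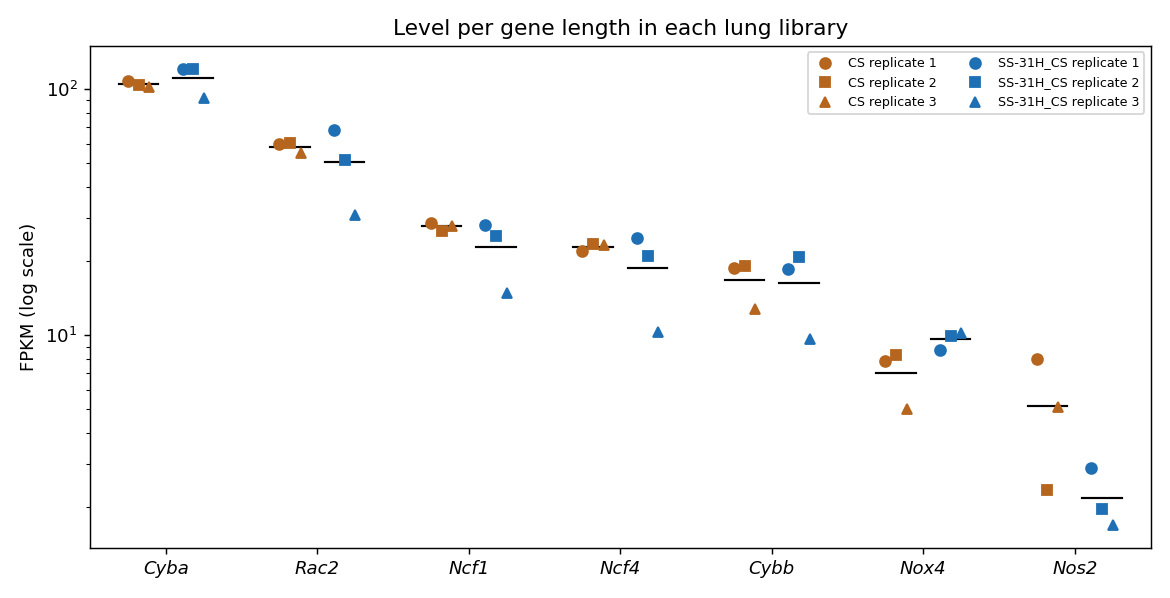
FPKM (y axis, log scale) of 7 members in each library, brown for CS and blue for SS-31H_CS, with a marker shape per replicate and a line at the group mean; Duox1 and Duox2 lie below the axis. The third SS-31H_CS library is the lowest in Cyba, Rac2, Ncf1, Ncf4 and Cybb and the highest in Nox4.

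The membrane subunits gave small differences between groups, and the sign of both turned with the library left out. Cybb (ENSMUSG00000015340, chromosome X, 9435252 to 9487771, GRCm38) was at 110.1, 110.0 and 78.2 CPM in CS replicates 1 to 3 and at 107, 116 and 55.9 CPM in SS-31H_CS replicates 1 to 3. The third library of each group was low, and the groups overlapped. Its log2 fold change was -0.10 (SE 0.27, 95% interval -0.71 to 0.51, adjusted p = 0.867 by edgeR), and it was 0.16 without SS-31H_CS replicate 3. Cyba, which encodes the partner shared by the NOX enzymes (ENSMUSG00000006519, chromosome 8, 122424776 to 122432930), was at 114, 107 and 112 CPM in CS and at 125, 120 and 95.2 CPM in SS-31H_CS. The SS-31H_CS libraries lay on both sides of the CS range, and the log2 fold change was 0.03 (95% interval -0.26 to 0.32, adjusted p = 0.907 by edgeR), and 0.14 without SS-31H_CS replicate 3.

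Among the cytosolic subunits, the CS libraries were close to one another and the SS-31H_CS libraries spread apart. Ncf1, whose product p47phox organizes the complex (ENSMUSG00000015950, chromosome 5, 134220053 to 134229625), was at 107, 96.5 and 107 CPM in CS and at 102, 88.7 and 54.2 CPM in SS-31H_CS. Ncf4 (ENSMUSG00000071715, chromosome 15, 78244801 to 78262580), for p40phox, was at 45.1, 47.2 and 49.5 CPM in CS and at 50.1, 40.3 and 20.8 CPM in SS-31H_CS. Rac2, the GTPase of blood cells (ENSMUSG00000033220, chromosome 15, 78559167 to 78572783), was at 188, 186 and 179 CPM in CS and at 212, 153 and 95.6 CPM in SS-31H_CS. In Ncf4 and Rac2 the first SS-31H_CS library was above every CS library while replicates 2 and 3 were below them all, and in Ncf1 the first lay inside the CS range. The log2 fold changes were -0.34 for Ncf1 (SE 0.21, adjusted p = 0.430 by edgeR), -0.35 for Ncf4 (SE 0.27, adjusted p = 0.520) and -0.26 for Rac2 (SE 0.25, adjusted p = 0.596).

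The size of these differences depended on SS-31H_CS replicates 1 and 3. Without SS-31H_CS replicate 3 the log2 fold changes were -0.12 for Ncf1, -0.07 for Ncf4 and -0.02 for Rac2. Without SS-31H_CS replicate 1 they were -0.54, -0.64 and -0.57 in the same order, and none of the members passed the threshold in either fit. In bulk tissue, fewer cells of a type and less RNA per cell cannot be told apart.

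Neutrophil markers were, like these subunits, lowest in SS-31H_CS replicate 3, as 13 of the 14 tested were. The summed level of the 15 listed markers was 2984 to 4259 CPM in CS and 695.5 to 4101 CPM in SS-31H_CS, with 4101, 2100 and 695.5 CPM in SS-31H_CS replicates 1, 2 and 3. This is the order in which Ncf1, Ncf4 and Rac2 ran across those libraries. Summed pan-leukocyte (1757, 1598 and 1073 CPM), alveolar macrophage (1314, 1183 and 935.5 CPM) and monocyte and interstitial macrophage markers (2625, 2078 and 1668 CPM) shared that order. Endothelial (4500, 4075 and 3447 CPM) and mesothelial markers (707.6, 689.3 and 452.5 CPM) shared it too. So did the sum of every related gene list, such as the nitric oxide and arginine genes (870.3, 826.8 and 760.9 CPM). The sums of the other marker lists did not. Of the monocyte and interstitial macrophage sums Ace held 1886, 1311 and 1121 CPM, and of the alveolar macrophage sums Chil3 held 794, 679 and 429 CPM. Car4 was counted in both the alveolar macrophage and the endothelial list. Log2 CPM centred per gene averaged 0.11, 0.29 and -0.30 over the monocyte and interstitial macrophage list, highest in replicate 2. It averaged -0.16, -0.18 and -0.20 over the alveolar macrophage list, and 0.227, 0.227 and -0.38 over the pan-leukocyte list. S100a8 and S100a9 made up most of the neutrophil sum in CS. Ltf (0.85) and Camp (0.66), chosen after their values were seen, had positive log2 fold changes and were highest in SS-31H_CS replicate 2. In CS the neutrophil sum was 3757, 2984 and 4259 CPM in replicates 1, 2 and 3, an order that Ncf1 shared. Ncf4 was highest in replicate 3, as that sum was, but lowest in replicate 1, and Rac2 was lowest in replicate 3. None of the 15 markers was at 0 in all libraries, and of the 14 tested, 0 were called by edgeR (3 lower at an unadjusted p under 0.05, 2 by DESeq2, 0 by limma voom). The 2 with the lowest p were Hdc, the histamine-forming enzyme (-0.85, adjusted p = 0.0800 by edgeR), and the decoy interleukin 1 receptor gene Il1r2 (-3.09, adjusted p = 0.115). The part of neutrophil number in the subunit levels was not tested.

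Lymphocyte lists and Cybb had another low library. Cybb was low in CS replicate 3 (0.25 below its mean on the log2 scale of CPM), where Ncf1 and Ncf4 were 0.25 and 0.29 above theirs. In that library the 10 B cell markers averaged -2.07 and the 12 T and NK cell markers -1.24 on the same centred scale. The summed B cell markers were 64.9 to 347 CPM in CS and 355 to 369 CPM in SS-31H_CS, with 0 of 10 called by edgeR (0 also without adjustment, by DESeq2 and by limma voom) and none at 0 throughout. Fcer2a, the low-affinity IgE receptor gene, and Pax5, the B cell factor, had the lowest p (1.26 and 0.73, adjusted p = 0.314 and 0.401 by edgeR), and without CS replicate 3 they were at 0.75 and 0.32. The 9 pan-leukocyte markers, which include Ptprc (CD45), summed to 1263 to 1596 CPM in CS and 1073 to 1757 CPM in SS-31H_CS, lowest in the third library of each group, as Cybb was. By edgeR, DESeq2 and limma voom 0 of the 9 were called, and 0 without adjustment; Cd48 (0.48) and Cd53 (-0.19) had the lowest p. Alveolar macrophage markers summed to 1818 to 2192 CPM in CS and 936 to 1314 CPM in SS-31H_CS, with 5 of 13 lower and 0 higher at an unadjusted p under 0.05, 0 called by edgeR, 3 by DESeq2 and 0 by limma voom. The lowest p were those of the scavenger receptor gene Marco (-1.03, adjusted p = 0.0800 by edgeR) and the chitinase-like gene Chil3 (-1.16, adjusted p = 0.0893), and none of the 13 was at 0 throughout. Their part in the level of Cybb was not tested.

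Dendritic cell, monocyte and interstitial macrophage, T and NK cell, mesothelial and both alveolar epithelial lists had 0 calls by edgeR and 0 by limma voom. At an unadjusted p under 0.05, dendritic cell markers had 4 of 10 higher and 0 lower (3 by DESeq2), and monocyte and interstitial macrophage markers 3 of 14 higher and 1 lower (1 by DESeq2). T and NK cell markers had 0 of 12 (0 by DESeq2) and mesothelial markers 0 of 5 (0 by DESeq2). Alveolar type 2 markers had 1 of 9 lower (1 by DESeq2) and alveolar type 1 markers 2 of 7 lower (1 by DESeq2).

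**Figure D3:**
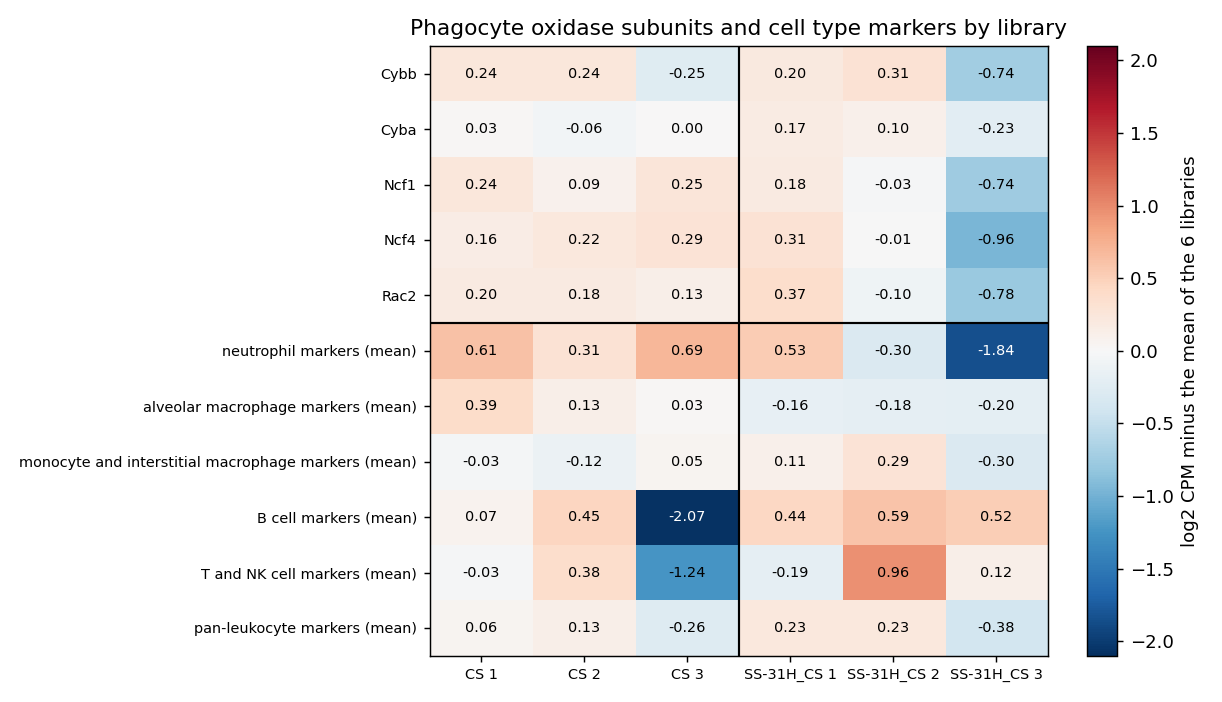
Log2 CPM minus the mean of the 6 libraries (colour and printed value) for 5 phagocyte oxidase genes, above the line, and for the mean of 6 marker lists, below it, with CS libraries left and SS-31H_CS libraries right. The third SS-31H_CS library is lowest in all 5 oxidase genes and, at -1.84, in neutrophil markers, and CS replicate 3 is lowest in B cell markers at -2.07.

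Relative to Cybb in the same library, each cytosolic subunit had ratios that overlapped between groups. The FPKM ratio of Ncf1 to Cybb was 1.70 ± 0.418 in CS and 1.42 ± 0.177 in SS-31H_CS (SD, n = 3, exact permutation p = 0.4). For Ncf4 to Cybb it was 1.41 ± 0.354 and 1.14 ± 0.180 (exact permutation p = 0.3), and for Rac2 to Cybb 3.55 ± 0.642 and 3.12 ± 0.608 (exact permutation p = 0.6). CS replicate 3 held the highest of each of these ratios, at 2.18, 1.82 and 4.29. The ratio of Nox4 to Cybb was 0.420, 0.436 and 0.391 in CS and 0.471, 0.475 and 1.06 in SS-31H_CS. All SS-31H_CS libraries were above all CS libraries, which gives an exact permutation p of 0.1, the smallest that 3 against 3 allows, and 0.5 adjusted over the 5 ratios that could be formed. The log2 difference in that ratio was 0.58, and 0.19 without SS-31H_CS replicate 3.

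Nox4, the oxidase without cytosolic subunits (ENSMUSG00000030562, chromosome 7, 87246096 to 87398710), was at 67.4, 69.9 and 44.6 CPM in CS and at 73.8, 80.0 and 86.5 CPM in SS-31H_CS. Every SS-31H_CS library was above every CS library, by a narrow margin except for CS replicate 3. The log2 fold change was 0.40 (1.32-fold, SE 0.17, 95% interval 0.00 to 0.80, unadjusted p = 0.0487, adjusted p = 0.272 by edgeR). It was 0.22 without CS replicate 3. Markers of cells that can carry Nox4 gave no single direction: the 10 fibroblast markers summed to 2121 to 2225 CPM in CS and 1975 to 2267 CPM in SS-31H_CS (median log2 fold change 0.05), and the 10 smooth muscle and pericyte markers to 892 to 966 CPM and 760 to 1082 CPM (median 0.06). The 10 endothelial markers summed to 4624 to 5945 CPM in CS and 3447 to 4500 CPM in SS-31H_CS (median -0.32). By edgeR and limma voom 0 markers of these 3 lists were called. At an unadjusted p under 0.05, fibroblast markers had 2 higher and 1 lower (1 called by DESeq2), smooth muscle and pericyte markers 0 (0 by DESeq2), and endothelial markers 4 lower (2 by DESeq2). The lowest p were those of Pdgfra (-0.76, adjusted p = 0.0554 by edgeR) and Dcn (0.61), of Myh11 (0.32) and Lmod1 (0.30), and of Cdh5 (-0.57) and Pecam1 (-0.51). None of these markers was at 0 in all libraries, and their part in the Nox4 level was not tested.

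The dual oxidases were barely detected in whole lung. Duox2 (ENSMUSG00000068452, chromosome 2, 122279247 to 122298449) had 7, 16 and 4 counts in CS and 15, 13 and 14 counts in SS-31H_CS. The CS libraries spanned the SS-31H_CS values, and the log2 fold change of 0.65 (SE 0.50, adjusted p = 0.513 by edgeR) became 1.31 without CS replicate 2 and 0.32 without CS replicate 3. Duox1 (ENSMUSG00000033268, chromosome 2, 122315672 to 122347972) had 0, 0 and 1 counts in CS and 2, 0 and 1 in SS-31H_CS. A count of 0 allows up to 3 counts, 0.172 to 0.185 CPM in these libraries, which covers counting error only, so a difference in Duox1 was not detectable at this depth. The maturation factor genes between them were as low, with at most 1 count per library in Duoxa1 and Duoxa2. These 4 genes form 1 cluster: Duox2 and Duox1 lie 17.2 kb apart on opposite strands, with Duoxa2 and Duoxa1 between. No Duox2 to Duox1 ratio could be formed.

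The airway epithelium that carries dual oxidases was present in the libraries. The 12 club and goblet cell markers summed to 24110 to 29020 CPM in CS and 29370 to 62510 CPM in SS-31H_CS, and the 10 ciliated cell markers to 1614 to 1706 CPM and 1832 to 2943 CPM. The highest sums of both lists were in SS-31H_CS replicate 3, where Duox2 had 14 counts and Duox1 had 1. In that library Scgb1a1, the main club cell secretoglobin gene, held 48060 of the 62510 CPM, while the mean centred log2 level of the club and goblet list was its lowest there (-0.75), with Scgb3a1 at 31.2, Muc5b at 19.9 and Bpifa1 at 5.29 CPM. Scgb3a2, a club cell secretoglobin gene, rose (1.44, adjusted p = 0.0467 by edgeR), the 1 call of its list. Without any 1 of the 6 libraries its adjusted p was 0.0720 to 0.167, above the threshold. Gabrp had the next lowest p (adjusted p = 0.146 by edgeR). In that list 7 of 12 were higher and 0 lower at an unadjusted p under 0.05, with 3 called by DESeq2 and 0 by limma voom. Of ciliated cell markers 0 were called by edgeR and 0 by limma voom, 8 by DESeq2, and 9 of 10 were higher at an unadjusted p under 0.05, led by Ccdc78 (1.05, adjusted p = 0.0651 by edgeR) and Foxj1 (1.31, adjusted p = 0.0728). None of these markers was at 0 throughout, and their part in the Duox2 level was not tested.

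Nos2 showed the largest difference among the members. Nos2 (ENSMUSG00000020826, chromosome 11, 78920787 to 78960254) was at 35.9, 10.3 and 23.8 CPM in CS and at 12.8, 8.31 and 7.47 CPM in SS-31H_CS. CS replicates 1 and 3 stood above all SS-31H_CS libraries, and CS replicate 2 lay inside the SS-31H_CS range. The log2 fold change was -1.29 (2.45-fold lower, SE 0.42, 95% interval -2.26 to -0.33, unadjusted p = 0.0145, adjusted p = 0.182 by edgeR). It was -0.85 without CS replicate 1 and -1.65 without CS replicate 2. Nos2 passed the threshold by DESeq2 (-1.31, adjusted p = 0.0186), in which 2.45% of genes were called lower, and by edgeR without a low-count filter (adjusted p = 0.0426). Over all alternatives its adjusted p ran from 0.0186 to 0.448 and its sign did not turn. Alveolar macrophage markers were lower in every SS-31H_CS library by their sum (values above). Chil3 held 1400, 1222 and 1629 CPM of that sum in CS replicates 1 to 3. Of the 13 markers, 5 were lower without overlap between groups, 0 were higher without overlap, and the rest overlapped. Over all tested genes, 12.4% were lower and 13.6% higher without overlap. Summed neutrophil markers in SS-31H_CS (4101, 2100 and 695.5 CPM in replicates 1 to 3) ran in the order of Nos2. In CS they were at 3757, 2984 and 4259 CPM, lowest in replicate 2 as Nos2 was. They were highest in CS replicate 3, and Nos2 in CS replicate 1. The part of both lists in the Nos2 level was not tested.

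**Figure D4:**
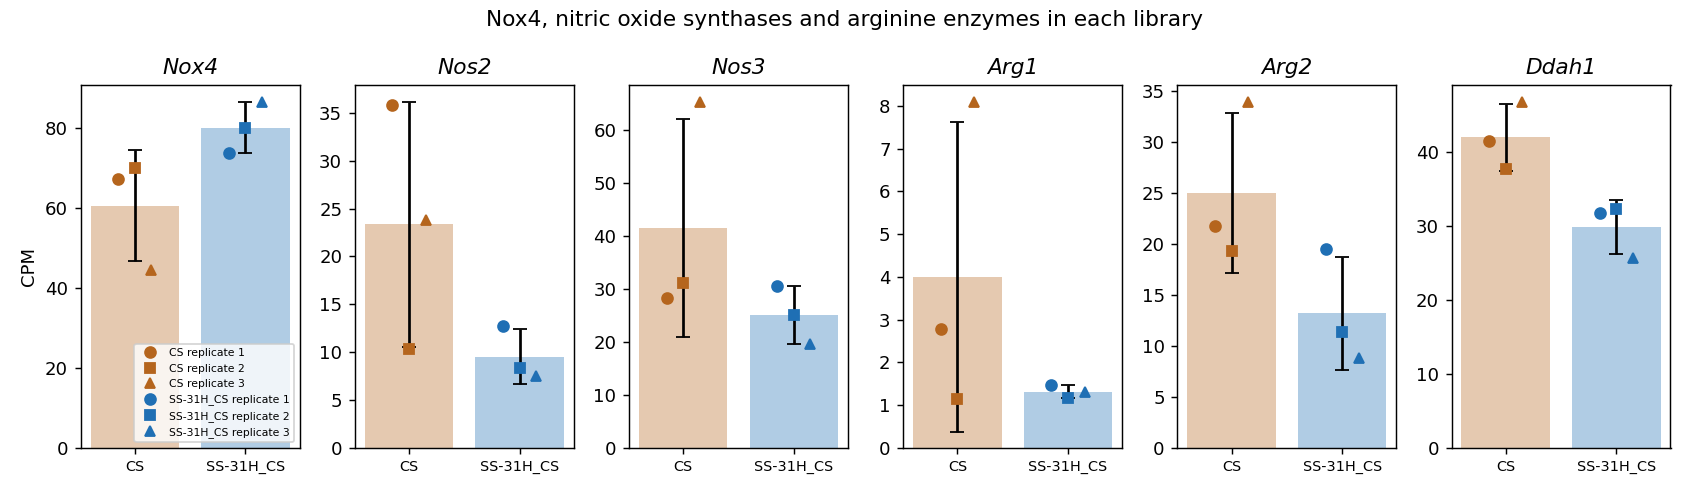
CPM (y axis, from 0) of Nox4, Nos2 and 4 related genes in each library, with bars at the group mean, error bars of 1 SD (n = 3) and a marker shape per replicate. All SS-31H_CS points of Nox4 are above the CS points and those of Ddah1 below them, while Nos2, Nos3, Arg1 and Arg2 overlap between groups.

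The other nitric oxide synthases and the arginases, which use the same substrate, were set beside Nos2. Nos3, the endothelial enzyme, was at 28.3, 31.2 and 65.3 CPM in CS and at 30.6, 25.1 and 19.6 CPM in SS-31H_CS (log2 fold change -0.73, adjusted p = 0.280 by edgeR). CS replicate 3 stood apart, and without it the value was -0.25. Nos1, the neuronal enzyme, had at most 4 counts in a library and was not tested. Arg1, a marker of alternatively activated macrophages, was at 2.77, 1.15 and 8.09 CPM in CS and at 1.48, 1.16 and 1.29 CPM in SS-31H_CS (-1.60, adjusted p = 0.246 by edgeR, and -0.58 without CS replicate 3). Arg2, the mitochondrial arginase, was at 21.8, 19.3 and 33.9 CPM and at 19.4, 11.3 and 8.82 CPM (-0.92, adjusted p = 0.202 by edgeR), highest in CS replicate 3 as well. CS replicate 3, the highest library in Nos3, Arg1 and Arg2, was the middle CS library in Nos2.

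Of 17 nitric oxide and arginine genes, 16 were tested and 0 were called by edgeR. At an unadjusted p under 0.05, 1 was higher and 4 lower, with 0 called by DESeq2 and 0 by limma voom, and the median log2 fold change was -0.09. The lowest p belonged to Ddah1, which breaks down endogenous inhibitors of nitric oxide synthases. It was at 41.5, 37.7 and 46.8 CPM in CS and at 31.8, 32.3 and 25.6 CPM in SS-31H_CS (-0.49, adjusted p = 0.140 by edgeR), with no overlap. The arginine transporter gene Slc7a1 had the next lowest p (-0.67, adjusted p = 0.192 by edgeR, and -0.34 without CS replicate 3).

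The remaining oxidase subunits and partners gave 0 calls by edgeR among 8 tested of 12, with 1 higher and 1 lower at an unadjusted p under 0.05, 1 called by DESeq2 and 0 by limma voom (median -0.06). Sh3pxd2a, a scaffold related to p47phox, was at 198, 174 and 193 CPM in CS and at 159, 132 and 123 CPM in SS-31H_CS. The groups did not overlap (-0.45, adjusted p = 0.152 by edgeR, and 0.0424 by DESeq2 to 0.386 over the alternatives other than limma trend). Noxo1, the organizer of the epithelial oxidase NOX1, was at 2.24, 1.78 and 2.04 CPM in CS and at 2.31, 5.44 and 3.53 CPM in SS-31H_CS without overlap (0.89, adjusted p = 0.237 by edgeR, and 0.53 without SS-31H_CS replicate 2). Its activator Noxa1 was also highest in SS-31H_CS replicate 2, at 8.98 CPM, but overlapped between groups (0.89, adjusted p = 0.391 by edgeR, and 0.27 without that library). Nox1 itself had 3 to 8 counts per library and Nox3 had 0 in all, so neither was tested. Rac1, the GTPase found in most cells, was at 390, 383 and 545 CPM in CS and at 428, 409 and 352 CPM in SS-31H_CS (-0.15, adjusted p = 0.661 by edgeR), and unlike Rac2 it was highest in CS replicate 3.

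Genes that assemble or activate the phagocyte oxidase (23 tested of 23) gave 0 calls by edgeR, with 1 higher and 3 lower at an unadjusted p under 0.05, 2 called by DESeq2 and 0 by limma voom (median -0.19). Of them 19 had a negative and 4 a positive log2 fold change, where 8253 of all tested genes were negative and 8712 positive. The mean centred log2 level of this list was 0.12, 0.10 and 0.09 in CS and 0.08, 0.01 and -0.40 in SS-31H_CS, so it was low in SS-31H_CS replicate 3, where neutrophil markers averaged -1.84, and their part in it was not tested. The lowest p was that of Tiam1, an exchange factor that loads Rac GTPases, at 17.9, 17.9 and 17.8 CPM in CS and 29.0, 27.7 and 31.5 CPM in SS-31H_CS. The groups were far apart relative to their spread (0.72, SE 0.11, adjusted p = 0.0646 by edgeR). Over the alternatives other than limma trend, the adjusted p of Tiam1 ran from 6.09e-04 by DESeq2 to 0.220. Vav2, another guanine nucleotide exchange factor, was at 80.3, 81.8 and 91.3 CPM in CS and 66.7, 60.3 and 57.5 CPM in SS-31H_CS, also without overlap. Its log2 fold change was -0.46 (adjusted p = 0.111 by edgeR, and 0.0206 by DESeq2 to 0.323 over the alternatives other than limma trend). Among 6 peroxidases, enzymes that use hydrogen peroxide, 3 were tested and 0 were called by edgeR, DESeq2 or limma voom, with 1 lower at an unadjusted p under 0.05. The secreted glutathione peroxidase gene Gpx3 was at 1963, 1730 and 2677 CPM in CS and 1868, 1248 and 1253 CPM in SS-31H_CS (-0.54, adjusted p = 0.258 by edgeR, and -0.35 without CS replicate 3), and peroxidasin, Pxdn, gave -0.38 on that scale (adjusted p = 0.361 by edgeR).

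The genes whose levels ran most like a member over the 6 libraries were sought by the root mean square difference in centred log2 CPM, among genes of at least 1 CPM. For Cybb these were the Toll-like receptor gene Tlr1 (0.09), Apbb1ip (0.09), a Rap1-binding adaptor of leukocytes, and the nucleoside kinase gene Dck (0.10). Tlr1 was at 19.0, 19.0 and 12.2 CPM in CS and at 19.6, 20.1 and 10.6 CPM in SS-31H_CS, low in the third library of each group as Cybb was. For Nox4 they were Hltf (0.05), Ogt (0.05), the enzyme that adds N-acetylglucosamine to proteins, and the transcription factor gene Nr2f2 (0.06). For Nos2 the nearest genes, Slc1a7 (0.31), Phyhip (0.35) and Xirp1 (0.37), were less near and low, at 0.764 to 5.72 CPM in any library. Duox1 was too low for such a search.

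Some gene models share exon sequence with a gene on the other strand, and the strand setting of the counting is not given in the sources used here. Among members this held for Ncf1, where 11.1% of the exon bases overlap Gtf2ird2. Of the related genes the share was 70.4% in Noxo1 (with Tbl3), 51.4% in Rac1 (with Daglb), 44.2% in Hvcn1 (with Tctn1), 42.8% in Duoxa2 and 17.1% in Duoxa1 (with each other), 32.3% in Nos3 (with Atg9b and Gm15587), 28.1% in Arg2 and 12.1% in Nox1 (with Cstf2). If the counting ignored strand, reads from such overlaps could not be assigned to either gene, so these values are less certain than the rest. Ncf4 and Rac2 ran in the same order across the SS-31H_CS libraries but in opposite orders across the CS libraries. They lie 296.6 kb apart on chromosome 15 and share no exon bases.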

How the data were processed

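Lung RNA of 3 CS and 3 SS-31H_CS libraries was sequenced by Illumina RNA-seq. The deposited tables hold, for 55573 Ensembl genes, whole-number read counts and FPKM made by the authors. Per the submitters' processing notes, cutadapt 1.9.1, HISAT2 2.0.1, HTSeq 0.6.1 and GRCm38 were used. The annotation release, strand setting and filters are not given in the sources used here. The deposited FPKM followed count over library total in 3310 genes with over 1000 counts in each library, with a largest gap of 0.242%. Symbols and GRCm38 coordinates come from GENCODE M21 by identifier (55480 matched, 93 did not).

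Counts were tested by edgeR 4.0.16 in R 4.3.3 (quasi-likelihood, TMM, minimum count 10, minimum total 15), SS-31H_CS against CS, two-sided, with Benjamini-Hochberg adjustment over 16965 genes and a threshold of 0.05. The standard error is the coefficient over the root of the F statistic, and the 95% interval uses the test's degrees of freedom. CPM uses TMM-scaled library sizes, and centred log2 values used a prior count of 2 for marker lists. FPKM ratios within a library were compared by exact permutation. The script was tested on 5 simulated data sets with 200 changed genes each. It found 8.96% of 1.5-fold, 49.6% of 2-fold and 94.2% of 4-fold changes, and 8.81% of its calls were false.

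Alternatives were RLE factors, library size alone, no low-count filter, DESeq2 1.42.0, voom in limma 3.58.1, a minimum of 1 CPM in 3 libraries, limma trend on log2(FPKM + 1) or log2(FPKM + 0.1) at a mean FPKM of at least 0.5, log2(FPKM + 1) without that minimum, the replicate block, and each library left out. Named genes were the 9 members, 12 set related genes, the 2 of lowest p (and any called) in each related list, and the 3 genes nearest to Cybb, Nox4 and Nos2. A gene of the related lists is counted in its list but not reported here. Markers were named only where a list stands beside a member. The members and lists were chosen with earlier results of these data known. The labels give no sequencing batch, date or sex.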

Additional observations from a re-analysis of the deposited data

How the results depend on the processing

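The number of genes changed was 26 in the main analysis, 12 with library size alone, 648 without a low-count filter, 939 by DESeq2 and 6 by limma voom. It was 6 on log2(FPKM + 1), 5 on log2(FPKM + 0.1) and 4 on log2(FPKM + 1) without the FPKM minimum. With the replicate number as a block it was 0, and over single libraries left out it ran from 1 to 15, with 15 without CS replicate 3 and 1 or 2 without any other library. The number of members called was 0 except for 1 (Nos2) without a low-count filter and 1 by DESeq2. For the other oxidase subunits and partners it was 0 except for 1 by DESeq2 (Sh3pxd2a), and for the nitric oxide and arginine genes 0 throughout. Same-numbered libraries did not deviate together (correlations of 0.01, 0.04 and -0.06 for numbers 1, 2 and 3), the numbers share only a label, and the replicate block called 0 members.

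Some small differences changed sign, and the cause was not tested. Over single libraries left out, the log2 fold change ran from -0.29 to 0.16 for Cybb, -0.051 to 0.14 for Cyba, -0.24 to 0.033 for Rac1, -0.18 to 0.24 for Tlr1, -0.37 to 0.020 for Apbb1ip and -0.19 to 0.19 for Dck. The log2 difference in the ratio of Cyba to Cybb ran from -0.036 to 0.34. Without the third library of both groups the values were 0.016 for Cybb, 0.11 for Rac1 and 0.10 for Dck. For Tlr1 (0.00 in the main analysis) the value was -0.0084 with RLE factors, -0.0069 without a low-count filter, -0.014 by DESeq2, -0.033 by limma voom and -0.022 with the replicate block. For Dck it was 0.0073 with library size alone. Of 133 values of members under alternatives, 127 kept their direction and side of the threshold, 4 reversed and 2 passed the threshold. Depth left Duox1, Nox1, Nox3, Duoxa1, Duoxa2 and Nos1 untested, and Duox2 had no adjusted p by DESeq2.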
